A study of Mus musculus with 8 samples.

Results

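The 4 RNA-seq libraries of NPC cultures at day 12 of *in vitro* corticogenesis were compared by replicate number, the 2 libraries with number 2 against the 2 with number 1, out of 8 libraries in the series. They were chosen by title alone. In B/J, represented by line BJE2, the mother was C57BL/6 and the father JF1. In J/B, represented by line JBE6, the parental strains were exchanged, with 1 library of each replicate number per cross. The other 4 libraries are ESCs of the same male lines, maintained in a medium with LIF, BMP4 and a GSK3-β inhibitor. No agent, genotype or time point separates replicate 2 from replicate 1, and the cultures of both were grown on Matrigel with a B27 supplement lacking vitamin A and with the BMP pathway inhibitor dorsomorphin homolog 1. Each cross is represented by 1 ESC line, so cross and line cannot be told apart. The labels do not say that the 2 numbers are separate differentiations, so the p-values below measure the spread between these libraries, which may be technical.

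*In vitro* corticogenesis lets ESCs leave pluripotency by default and take a neural, mostly telencephalic, fate. Neural precursors divide, switch on proneural factors and give rise to neurons, and the earliest neurons of the cortex are the reelin-secreting Cajal-Retzius cells, many of which arise from the cortical hem at the dorsal midline. Differentiating ESC cultures are mixtures, and cells of other lineages can grow beside the neural ones. Mesenchymal cells are recognised by fibrillar collagens. Trophoblast, the epithelium of the placenta, is recognised by its transcription factors and by secreted products of rodent gene families such as the prolactins and the placental cathepsins. The comparison asks how the transcripts of these compartments vary together between cultures made by the same protocol.

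Reads counted on genes numbered 30809461 and 32706015 in the B/J and J/B libraries of replicate 1 and 26578561 and 25621586 in those of replicate 2, and levels are given as CPM, the usual scaling to a common total of reads on genes. A single count was worth 0.0306 to 0.0390 CPM. Reads shared between genes made up 0.536% and 0.554% of the replicate 1 libraries and 0.378% and 0.355% of the replicate 2 libraries. At least 1 count was found for 19799 and 19907 genes in replicate 1 and for 18706 and 18794 genes in replicate 2. The labels name either of 2 mRNA kits and either of 2 sequencers without saying which library had which, so kit, sequencer and replicate number cannot be told apart.

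No gene passed an adjusted p of 0.05 in edgeR's quasi-likelihood test with cross as a block (0 of 15933 genes, 0%), and the smallest adjusted p was 0.0697. An unadjusted p below 0.05 was found for 3023 genes (19.0%), of which 1698 were higher in replicate 2 (10.7%) and 1325 lower (8.32%). Among other tests, DESeq2 called 825 genes (3.18% of its genes higher and 1.60% lower), limma-voom 305 (0.640% higher and 1.27% lower), and edgeR fitted on all 8 libraries 55 (0.238% higher and 0.0976% lower). Differences below are therefore given as levels and as counts of genes whose 2 groups of libraries did not overlap, beside the same count over all genes tested. Both replicate 2 libraries lay above both replicate 1 libraries for 21.3% of all genes and below them for 22.7%. Of all genes, 32.1% were higher and 34.2% lower in replicate 2 of both crosses. The median log2 difference of all genes tested was -0.01.

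Replicate 2 cultures had higher levels of transcripts of neurons and of the dorsal and ventral telencephalon in both crosses. Their trophoblast transcripts were mostly lower in both crosses. Transcripts of neural precursors and of mesenchyme had no common direction, since they differed one way in B/J and the other way in J/B. In bulk RNA, fewer cells of a type and less RNA per cell cannot be told apart.

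**Figure D1:**
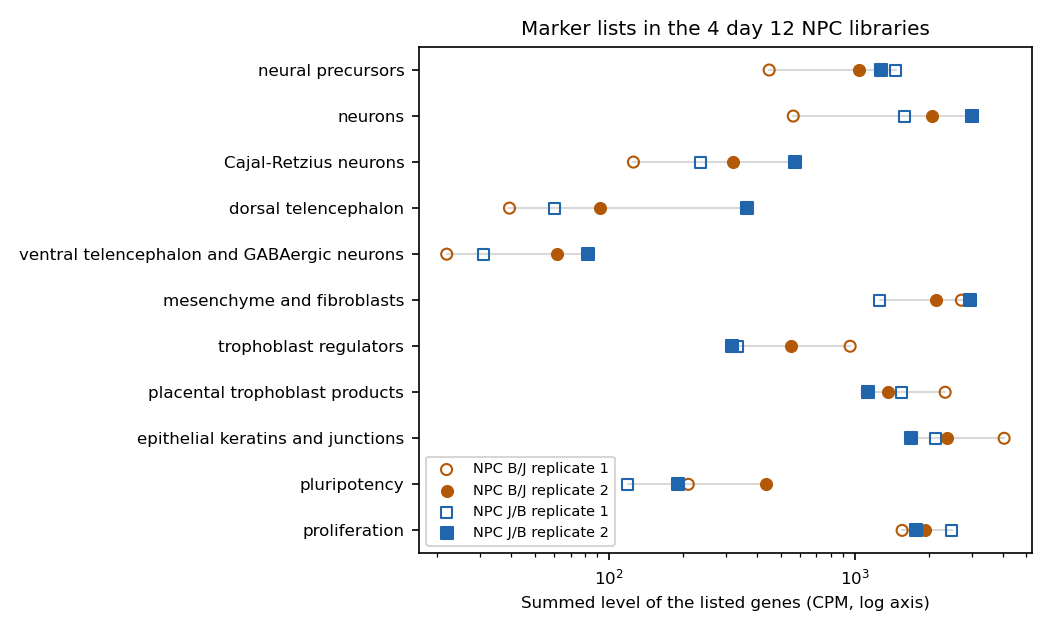
Summed level in CPM (log axis) of the genes of 11 marker lists in each of the 4 NPC libraries, with circles for B/J, squares for J/B, open symbols for replicate 1 and filled symbols for replicate 2. The filled symbols lie to the right for the 4 lists from neurons to the ventral telencephalon, and NPC B/J replicate 1 has the lowest sum of neuron markers (563 CPM) and the highest of placental trophoblast products (2337 CPM).

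Promoter windows are shown for 4 genes that stand for the groups compared. They are *Reln* for neurons, *Col3a1* for mesenchyme, *Tpbpa* for trophoblast and *Ldhc* for a set of male germ cell transcripts described further on. Each window runs from 250 bases before to 50 bases after the annotated start, 5′ to 3′ on the strand of the gene, from RefSeq on GRCm38.p6, with each CG dinucleotide in capitals.
Reln (chr5:22344656-22344955, minus strand): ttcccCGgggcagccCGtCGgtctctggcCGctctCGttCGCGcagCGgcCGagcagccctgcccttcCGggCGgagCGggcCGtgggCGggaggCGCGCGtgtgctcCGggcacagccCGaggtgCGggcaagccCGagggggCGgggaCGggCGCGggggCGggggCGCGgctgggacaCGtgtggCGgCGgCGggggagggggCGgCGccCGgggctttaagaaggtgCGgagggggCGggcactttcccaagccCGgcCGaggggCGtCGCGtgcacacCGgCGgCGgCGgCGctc
Col3a1 (chr1:45311288-45311587, plus strand): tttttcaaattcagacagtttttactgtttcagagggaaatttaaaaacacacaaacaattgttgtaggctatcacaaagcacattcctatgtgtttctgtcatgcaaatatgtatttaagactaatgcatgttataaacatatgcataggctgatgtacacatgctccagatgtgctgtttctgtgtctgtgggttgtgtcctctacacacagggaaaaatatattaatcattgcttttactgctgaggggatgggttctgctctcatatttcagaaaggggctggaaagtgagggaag
Tpbpa (chr13:60941887-60942186, minus strand): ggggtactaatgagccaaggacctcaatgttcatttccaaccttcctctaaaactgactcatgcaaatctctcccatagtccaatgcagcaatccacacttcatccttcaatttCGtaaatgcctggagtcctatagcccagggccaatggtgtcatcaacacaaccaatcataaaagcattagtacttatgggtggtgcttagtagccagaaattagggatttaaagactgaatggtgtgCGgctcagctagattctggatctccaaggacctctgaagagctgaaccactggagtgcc
Ldhc (chr7:46861013-46861312, plus strand): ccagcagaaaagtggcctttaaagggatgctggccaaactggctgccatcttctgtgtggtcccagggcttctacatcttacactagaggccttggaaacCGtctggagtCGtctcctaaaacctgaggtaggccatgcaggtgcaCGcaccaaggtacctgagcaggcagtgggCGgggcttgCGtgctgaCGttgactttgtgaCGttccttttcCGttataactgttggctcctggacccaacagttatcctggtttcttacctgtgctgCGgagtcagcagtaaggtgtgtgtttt

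The window of *Reln* holds 47 CG dinucleotides, that of *Ldhc* 9, that of *Tpbpa* 2 and that of *Col3a1* 0. Across 27025 promoters of the table the median was 7, and 94.2% held at least 1. Among list members with an entry, the median was 26 for neurons (9 of 15 genes matched), 18 for dorsal telencephalon (8 of 10), 20 for neural precursors (9 of 11), 9.5 for mesenchyme (10 of 16), 20 for trophoblast regulators (8 of 11), 2 for placental trophoblast products (17 of 20) and 3.5 for spermatocytes and spermatids (14 of 18). The regulators of trophoblast thus lay near the neural lists and its products did not, which is a description of the windows and was not tested.

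Neuronal transcripts were higher in replicate 2, with a positive fitted difference for all 15 markers. The 15 neuron markers summed to 563 CPM in B/J replicate 1, 2062 in B/J replicate 2, 1593 in J/B replicate 1 and 3011 in J/B replicate 2. The groups did not overlap for 13 of the 15 genes, against 21.3% of all genes in that direction, and 14 had an unadjusted p below 0.05, against 10.7%. The list's median log2 difference was 1.33, with 1.79 in B/J and 0.88 in J/B. DESeq2 called 14 of these genes higher, against 3.18% of all its genes, and limma-voom 6, against 0.640%. The main edgeR test called 0 of them, as did the edgeR fit on all 8 libraries, which called 0.238% of all genes higher.

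*Dcx*, which encodes the microtubule-binding protein doublecortin of migrating young neurons, was read at 71.7 and 193.3 CPM in replicate 1 (B/J and J/B) and at 326.1 and 467.6 CPM in replicate 2. Its log2 difference was 1.69 (standard error 0.262, unadjusted p = 0.00142, adjusted p = 0.0759). *Map2*, a microtubule-associated protein of dendrites, was read at 74.7 and 226.5 CPM in replicate 1 and at 303.6 and 523.1 CPM in replicate 2. For both genes the gap was wider in B/J than in J/B. For *Tubb3*, the neuronal β-tubulin, the levels were 85.4 and 255.9 CPM in replicate 1 and 263.7 and 400.6 CPM in replicate 2. *Elavl3*, a neuronal RNA-binding protein, had 43.9 and 122.9 CPM in replicate 1 and 125.4 and 220.4 CPM in replicate 2. J/B replicate 1 and B/J replicate 2 were thus nearly level for *Tubb3* and *Elavl3*. The exception was *Nefm*, a neurofilament subunit, with 14.4 and 101.7 CPM in replicate 1 and 34.6 and 82.4 CPM in replicate 2, so that it was lower in replicate 2 of J/B.

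*Snap25* of the neuron list, a part of the vesicle fusion machinery of synapses, was read at 5.94 and 14.3 CPM in replicate 1 and at 24.1 and 47.5 CPM in replicate 2. A list of 12 glutamate, GABA and sodium channel or transporter genes, was chosen after values were seen, which fixes its direction, and it had a median log2 difference of 1.91. In this list *Slc17a6*, the vesicular glutamate transporter of early excitatory neurons, had 5.87 and 10.3 CPM in replicate 1 and 27.3 and 48.3 CPM in replicate 2. *Gria2*, an AMPA receptor subunit, had 6.72 and 15.1 CPM in replicate 1 and 31.4 and 120.9 CPM in replicate 2. *Gria1*, another subunit of the same receptor, overlapped, at 12.8 and 2.42 CPM in replicate 1 and 6.55 and 16.2 CPM in replicate 2.

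Dorsal telencephalic transcripts were higher in replicate 2, most of all in J/B. The 10 genes summed to 39.5 CPM in B/J replicate 1, 92.1 in B/J replicate 2, 60.4 in J/B replicate 1 and 364.9 in J/B replicate 2. The groups did not overlap for 9 of 10 genes, against 21.3% of all genes in that direction, and 8 had an unadjusted p below 0.05, against 10.7%. The median log2 difference was 2.38. The size depended on the cross, with a median of 1.26 in B/J and 2.80 in J/B, and without either J/B library it was 1.26, below the 1.79 of the neuron list in B/J.

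*Lhx2*, a selector of cortical fate, had 6.36 and 15.3 CPM in replicate 1 and 23.1 and 75.8 CPM in replicate 2 (log2 difference 2.05, standard error 0.212, adjusted p = 0.0697). It was highest in J/B replicate 2. *Emx2*, a homeobox gene of the cortical primordium, had 4.61 and 4.74 CPM in replicate 1 and 7.94 and 28.7 CPM in replicate 2. *Emx1* had 0.357 and 0.397 CPM in replicate 1 and 1.47 and 10.5 CPM in replicate 2. The deep-layer neuron gene *Tbr1* had 2.66 and 2.63 CPM in replicate 1 and 8.80 and 42.6 CPM in replicate 2. *Neurod6*, of postmitotic cortical excitatory neurons, was at 0.909 and 0.887 CPM in replicate 1, at 1.47 CPM in B/J replicate 2 and at 21.5 CPM in J/B replicate 2. For *Emx1*, *Tbr1* and *Neurod6* the replicate 1 libraries were close to each other and J/B replicate 2 stood apart from the other 3.

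The Cajal-Retzius list was higher in replicate 2 for all 7 genes, without overlap for each, against 21.3% of all genes, and with an unadjusted p below 0.05 for each, against 10.7%. Its sums were 126.1 and 236.1 CPM in replicate 1 and 321.5 and 571.4 CPM in replicate 2. *Reln* (chr5:22089452-22549700, minus strand, GENCODE vM39 on GRCm39), which encodes the secreted protein reelin, was read at 3.34 CPM in B/J replicate 1, 27.4 in B/J replicate 2, 26.2 in J/B replicate 1 and 143.6 in J/B replicate 2. The groups stood apart by a narrow margin, since J/B replicate 1 lay just under B/J replicate 2, while the log2 difference with cross as a block was 2.68 (standard error 0.219, unadjusted p = 5.26e-05, adjusted p = 0.0697). *Lhx5* had 11.3 and 24.6 CPM in replicate 1 and 33.6 and 44.9 CPM in replicate 2. *Ebf3* had 52.1 and 76.5 CPM in replicate 1 and 115.1 and 167.7 CPM in replicate 2.

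Cortical hem genes, a list of 7 secreted Wnt pathway genes and *Lmx1a*, were chosen after values were seen, which fixes the direction of the list. Its median log2 difference was 0.96 in B/J and 2.27 in J/B. *Rspo2* (chr15:42877439-43034706, minus strand), a secreted amplifier of Wnt signalling, was read at 1.82 and 9.91 CPM in replicate 1 and at 16.2 and 114.2 CPM in replicate 2. Its log2 difference of 3.32 (standard error 0.211) had the smallest unadjusted p of all genes, 1.43e-05 (adjusted p = 0.0697). *Wnt8b* (chr19:44481907-44502712, plus strand), a Wnt ligand of the hem, had 0.811 and 5.595 CPM in replicate 1 and 7.71 and 43.8 CPM in replicate 2. The B/J and J/B differences were 3.10 and 3.49 on the log2 scale for *Rspo2* and 3.18 and 2.93 for *Wnt8b*, closer to each other than the medians of the list. Both genes were named for a small unadjusted p and a shared sign in the crosses, which favours close differences. *Lmx1a*, a roof plate factor, overlapped, at 3.08 and 20.8 CPM in replicate 1 and 7.41 and 19.9 CPM in replicate 2.

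Ventral telencephalic and GABAergic genes had positive fitted differences for all 11 genes, with no overlap for 7, against 21.3% of all genes, and a median log2 difference of 1.48. *Dlx1*, of ventral progenitors and interneurons, had 1.27 and 0.612 CPM in replicate 1 and 4.67 and 2.93 CPM in replicate 2. *Gad2*, which makes GABA, had 8.02 and 7.92 CPM in replicate 1 and 19.4 and 29.9 CPM in replicate 2. *Nkx2-1*, of the most ventral telencephalon, was under 0.8 CPM in every NPC library. The sums of the midbrain, hindbrain and spinal cord list, 65.1 and 211.9 CPM in replicate 1 and 147.0 and 162.3 CPM in replicate 2, overlapped, with a median log2 difference of 0.96 in B/J and -0.66 in J/B.

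Neural precursor genes differed in opposite directions in the 2 crosses. The 11 genes summed to 449.7 CPM in B/J replicate 1 and 1047 in B/J replicate 2, but to 1474 in J/B replicate 1 and 1286 in J/B replicate 2. The median log2 difference was 1.36 in B/J and -0.46 in J/B. Over both crosses it was 0.44, and 10 of the 11 genes overlapped. *Nes*, the intermediate filament nestin, had 75.9 and 297.3 CPM in replicate 1 and 157.7 and 187.7 CPM in replicate 2. *Pax6*, a transcription factor of dorsal progenitors, had 7.95 and 54.9 CPM in replicate 1 and 32.2 and 48.3 CPM in replicate 2. *Sox1*, an early neural plate factor, had 11.1 and 96.6 CPM in replicate 1 and 36.2 and 59.3 CPM in replicate 2. *Sox2*, which neural precursors share with ESCs, had 46.6 and 238.5 CPM in replicate 1 and 169.5 and 182.0 CPM in replicate 2. For each of these 4 genes the replicate 1 libraries were the lowest and the highest of the 4, and the replicate 2 libraries lay between them. Of the other 7 genes, 2 were higher in replicate 2 of J/B, *Fabp7* and *Slc1a3*. *Fabp7*, a lipid-binding protein of radial glia, had 29.0 and 69.3 CPM in replicate 1 and 91.1 and 163.7 CPM in replicate 2. *Slc1a3*, a glutamate transporter of radial glia, was level in B/J and higher in replicate 2 of J/B, at 71.5 and 45.1 CPM in replicate 1 and 71.3 and 139.3 CPM in replicate 2.

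The proneural list had a median log2 difference of 0.43, with 1.38 in B/J and -0.09 in J/B. *Neurog2*, a proneural factor of the dorsal telencephalon, had 10.5 and 26.7 CPM in replicate 1 and 28.9 and 55.7 CPM in replicate 2. The Notch ligands *Dll1* and *Dll3* overlapped between replicates, and 3 of the 10 genes did not overlap and were higher, against 21.3% of all genes. The ratio of neuron to precursor transcripts was thus higher in replicate 2 of both crosses, with sums of 563 against 449.7 CPM and 1593 against 1474 CPM in replicate 1 (B/J and J/B), and 2062 against 1047 CPM and 3011 against 1286 CPM in replicate 2.

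**Figure D2:**
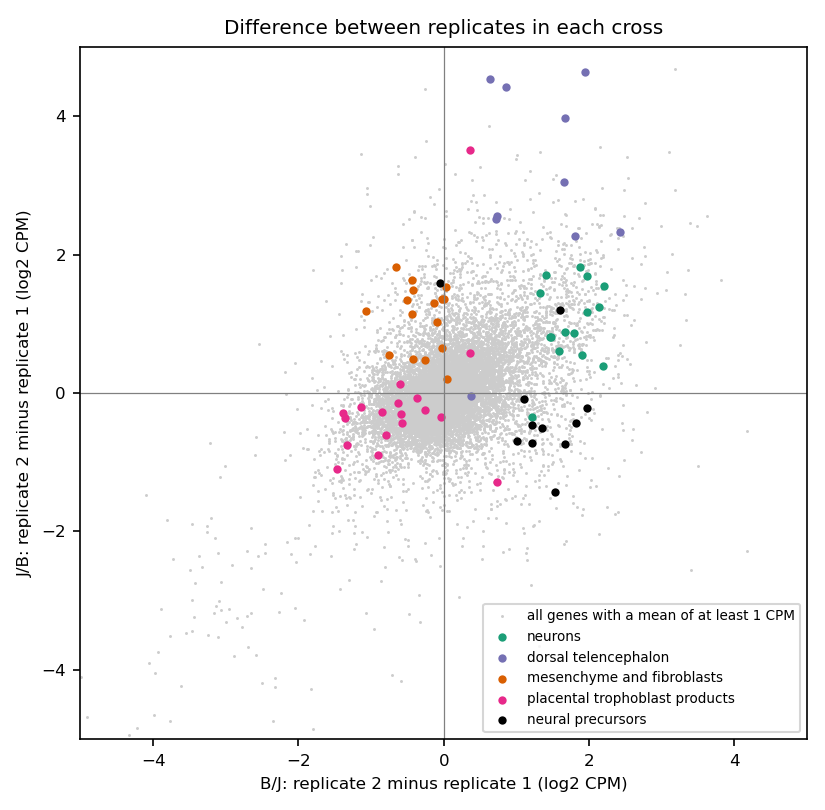
Difference between replicate 2 and replicate 1 on the log2 CPM scale in B/J (horizontal axis) and J/B (vertical axis), 1 point per gene for genes with a mean of at least 1 CPM, with members of 5 lists coloured. Most neuron and dorsal telencephalon genes lie at the upper right, most placental products at the lower left, most mesenchymal genes at the upper left and most neural precursor genes at the lower right, and 53 of 14294 genes lie outside the axes.

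Mesenchymal transcripts had the opposite split. The 16 genes summed to 2721 CPM in B/J replicate 1 and 2147 in B/J replicate 2, and to 1267 in J/B replicate 1 and 2945 in J/B replicate 2. The median log2 difference was -0.34 in B/J and 1.25 in J/B, where all 16 genes were higher in replicate 2. Over both crosses it was 0.44, no gene had an unadjusted p below 0.05, and 15 of 16 genes overlapped. *Col1a1*, a chain of type I collagen, had 440.8 and 187.7 CPM in replicate 1 and 340.8 and 539.4 CPM in replicate 2. *Col1a2*, its partner chain, had 209.7 and 39.1 CPM in replicate 1 and 159.2 and 124.7 CPM in replicate 2. *Col3a1* was the most abundant of the list, at 1141 and 523.7 CPM in replicate 1 and 866.5 and 1186 CPM in replicate 2. *Col5a1* had 203.0 and 147.0 CPM in replicate 1 and 155.9 and 211.9 CPM in replicate 2. J/B replicate 1 was the lowest library for these 4 collagens. It was also the lowest for *Pdgfra*, the growth factor receptor of mesenchyme, at 56.8 CPM against 94.6 to 147.8 CPM in the other 3 libraries.

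Differences between the crosses in this contrast were tested for each gene in a fit of all 8 libraries, in which the spread came from the ESC libraries. No gene passed an adjusted p of 0.05 (0 of 17235 genes, 0%), and 1208 had an unadjusted p below 0.05 (7.01%). For *Sox2* the difference of J/B minus B/J was -2.22 on the log2 scale (adjusted p = 0.182), and for *Col1a1* it was 1.92 (adjusted p = 0.956). The opposite directions of the precursor and mesenchymal lists therefore rest on 1 pair of libraries per cross.

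Trophoblast transcripts were mostly lower in replicate 2. The 11 transcription factors summed to 959.9 and 333.8 CPM in replicate 1 and to 554.2 and 317.0 CPM in replicate 2, with a median log2 difference of -0.51 (-0.76 in B/J and -0.15 in J/B). The median was -0.29 after scaling to the 3 reference genes and -0.12 after scaling to ribosomal protein genes. Of these genes 9 were lower and 4 of them had an unadjusted p below 0.05, against 8.32% of all genes. None was without overlap in that direction, while 2 were higher without overlap, against 21.3% of all genes. The J/B sums were low in both replicates. *Ascl2*, a factor of the spongiotrophoblast, had 61.8 and 20.4 CPM in replicate 1 and 24.8 and 9.68 CPM in replicate 2 (log2 difference -1.24, standard error 0.189, unadjusted p = 0.00107, adjusted p = 0.0758). *Hand1*, of giant cells, had 37.6 and 14.8 CPM in replicate 1 and 23.2 and 7.03 CPM in replicate 2. *Gata2* had 174.6 and 46.6 CPM in replicate 1 and 98.7 and 43.1 CPM in replicate 2, and *Gata3* 79.8 and 27.1 CPM in replicate 1 and 50.7 and 28.4 CPM in replicate 2. The 2 GATA factors were lower in replicate 2 of B/J and nearly level in J/B. *Eomes*, which trophoblast stem cells share with the cortical progenitors of neurons, was higher in replicate 2, at 9.67 and 5.72 CPM against 13.2 and 42.7 CPM.

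Placental products were lower in replicate 2 of both crosses by their sums. The 20 genes summed to 2337 and 1551 CPM in replicate 1 and to 1362 and 1136 CPM in replicate 2. Of the 18 genes tested, 16 were lower in replicate 2, 8 of them had an unadjusted p below 0.05, against 8.32% of all genes, and 7 did not overlap, against 22.7%. The median log2 difference was -0.49, with -0.61 in B/J and -0.30 in J/B, and it was -0.30 without either B/J library. After scaling to ribosomal protein genes the median was -0.08 while that of all genes shifted by 0.39. *Tpbpa*, of the spongiotrophoblast, had 450.0 and 281.4 CPM in replicate 1 and 184.6 and 170.9 CPM in replicate 2 (log2 difference -1.04, standard error 0.201, unadjusted p = 0.00331, adjusted p = 0.0940). *Tpbpb* had 47.3 and 25.3 CPM in replicate 1 and 31.6 and 23.6 CPM in replicate 2. *Prl2a1*, a prolactin family hormone, had 272.4 and 286.0 CPM in replicate 1 and 150.6 and 158.1 CPM in replicate 2. *Prl2c5*, of the same family, had 205.6 and 175.8 CPM in replicate 1 and 141.1 and 146.4 CPM in replicate 2. The prolactin pair differed between replicates and hardly between crosses, whereas the *Tpbp* pair was higher in B/J replicate 1 than in the other 3 libraries. *Prl2a1*, *Prl2c5* and the *Tpbp* genes belong to families of related genes, and where copies are alike the counting could divide reads among them.

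Keratins and junction genes of epithelia summed to 4060 and 2135 CPM in replicate 1 and to 2383 and 1703 CPM in replicate 2, in the same order of libraries as the trophoblast regulators. *Krt8*, a keratin of simple epithelia, had 1557 and 893.5 CPM in replicate 1 and 796.2 and 568.5 CPM in replicate 2. *Krt19* had 678.7 and 288.8 CPM in replicate 1 and 321.3 and 222.4 CPM in replicate 2. *Krt5*, of basal epithelium, did not follow, at 26.0 and 1.35 CPM in replicate 1 and 22.3 and 29.3 CPM in replicate 2. Of the 9 keratin and junction genes 5 were lower, 3 with an unadjusted p below 0.05, against 8.32% of all genes, and 1 was lower without overlap, against 22.7%. Their median log2 difference was -0.39 and became 0.0047 after scaling to ribosomal protein genes. The endothelial list was dominated by *Cdh5*, a cell adhesion gene, with 879.8 and 305.6 CPM in replicate 1 and 453.6 and 253.5 CPM in replicate 2, while *Kdr* and *Pecam1* lay at or below 26.3 CPM. Adult haemoglobin genes *Hba-a1*, *Hba-a2*, *Hbb-bs* and *Hbb-bt* had 0 counts in every library, and *Cx3cr1*, of microglia, was at or under 0.0390 CPM.

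Set side by side, the 4 libraries ran in opposite orders for neurons and for placental products. The sum of neuron markers increased from B/J replicate 1 through J/B replicate 1 and B/J replicate 2 to J/B replicate 2, and the sum of placental products decreased through the same 4 libraries in the same order. Dorsal telencephalon, Cajal-Retzius and ventral telencephalon sums had the order of the neurons. Trophoblast regulators and keratins did not have the order of the placental products, since their sums were higher in B/J replicate 2 (554.2 and 2383 CPM) than in J/B replicate 1 (333.8 and 2135 CPM). The mesenchyme sum had neither order, being lowest in J/B replicate 1 and highest in J/B replicate 2. With 4 libraries no correlation was computed, and CPM values share a total, so a higher share of one group lowers the shares of others.

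Pluripotency transcripts were low in NPCs, and their sums were higher in replicate 2 of both crosses. The 12 genes summed to 210.8 and 119.7 CPM in replicate 1 and to 435.2 and 191.9 CPM in replicate 2, against 5735 to 8891 CPM in the ESC libraries. Of these genes 10 were higher, 7 with an unadjusted p below 0.05, against 10.7% of all genes, and 4 without overlap, against 21.3%. Their median log2 difference was 1.26 in B/J and 0.56 in J/B. *Dppa5a*, an RNA-binding protein of ESCs, had 19.1 and 7.43 CPM in replicate 1 and 90.2 and 29.9 CPM in replicate 2 (log2 difference 2.08, standard error 0.183, adjusted p = 0.0697). *Nanog*, a pluripotency factor, had 11.003 and 7.43 CPM in replicate 1 and 44.0 and 13.5 CPM in replicate 2. *Pou5f1*, the core pluripotency factor, was higher in replicate 2 of B/J and nearly level in J/B, with 19.5 and 23.3 CPM in replicate 1 and 58.9 and 22.7 CPM in replicate 2.

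A list of 10 other ESC transcripts, chosen after values were seen and including zinc finger genes and oocyte and germline genes, was higher in replicate 2 of both crosses for all 10, a direction that the choice of the genes fixes, with a median log2 difference of 2.34. *Zfp600* had 0.714 and 0.520 CPM in replicate 1 and 7.86 and 3.005 CPM in replicate 2. *Tcl1* had 1.01 and 0.122 CPM in replicate 1 and 6.10 and 1.21 CPM in replicate 2. The germ cell gene *Dazl* had 0.584 and 0.275 CPM in replicate 1 and 7.60 and 1.76 CPM in replicate 2. B/J replicate 2 was the highest library for these genes, unlike the neuronal lists, where J/B replicate 2 was highest. The summed level of this list was 7.03 to 97.3 CPM in NPCs and 1892 to 2306 CPM in ESCs.

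Smaller compartments also varied. *T*, the primitive streak factor brachyury, had 16.6 and 173.2 CPM in replicate 1 and 10.05 and 44.2 CPM in replicate 2, so that J/B replicate 1 stood above the other 3 libraries. The same library was highest for *Acta2*, smooth muscle actin (11.003 and 74.1 CPM in replicate 1 against 8.05 and 16.4 CPM in replicate 2), and for *Foxa2*, of endoderm and floor plate (8.47 and 35.3 CPM against 7.15 and 11.7 CPM). *Ttr*, the thyroxine carrier of choroid plexus and visceral endoderm, had 0.0974 and 0.459 CPM in replicate 1 and 1.05 and 12.5 CPM in replicate 2. *Sox10*, of the neural crest, did not exceed 1.95 CPM, while *Tfap2b*, which neural crest shares with other tissues, had 46.2 and 51.3 CPM in replicate 1 and 112.0 and 199.9 CPM in replicate 2.

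Cell cycle genes were mostly lower in replicate 2 of J/B, and ribosomal protein genes mostly lower in replicate 2 of both crosses. For 12 cell cycle genes the median log2 difference was -0.31, with 0.10 in B/J and -0.69 in J/B, and it became 0.09 after scaling to ribosomal protein genes. *Cdk1*, the mitotic kinase, had 92.3 and 103.6 CPM in replicate 1 and 78.3 and 65.4 CPM in replicate 2. Of 79 cytosolic ribosomal protein genes, 76 were lower and 61 without overlap, against 22.7% of all genes, with a median of -0.33 (-0.19 in B/J and -0.45 in J/B) that became 0.07 when libraries were scaled to these same genes. Their share of all counted reads was 4.98% and 4.92% in replicate 1 and 4.52% and 3.61% in replicate 2. Replication-dependent histones, whose mRNAs lack a poly(A) tail, had a median of -0.78 over the 23 of 62 genes tested (-0.65 in B/J and -1.27 in J/B), and 13 were lower without overlap, against 22.7% of all genes. Across 15487 genes with a known length, long genes tended to be higher in replicate 2, with a median log2 difference of 0.17 above the upper quartile of length and -0.19 below the lower quartile. The median transcript length was 4273 bases in the neuron list, 630 in the histone list and 1309 in the placental list. With offsets for length and GC content, 0 genes passed an adjusted p of 0.05, as without them. That count therefore cannot show the part of length in these lists, which was not tested further.

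The genes with the smallest unadjusted p, 10 in each direction, had different identities in the 2 directions. Higher in replicate 2 were *Rspo2*, *Wnt8b*, *Reln*, *Nrn1*, *Syt4*, *Morf4l1b*, *Slc17a6*, *Dppa5a*, *Scn3a* and *Celf4*, most of which are neuronal or secreted patterning genes. Lower were *Gm7444*, *Adam5*, *Meig1*, *Tuba3b*, *Tdrd6*, *Fhl4*, *Rpl31-ps12*, *Atp8b3*, *Gm19757* and *Lars2*, several of which are known from the testis. The log2 differences of the first group lay between 1.93 and 3.32. Each of the 20 had an adjusted p of 0.0697. *Syt4*, a vesicle protein, had 6.26 and 16.9 CPM in replicate 1 and 35.9 and 83.5 CPM in replicate 2. *Celf4*, a neuronal RNA-binding protein, had 15.4 and 42.2 CPM in replicate 1 and 63.7 and 156.9 CPM in replicate 2.

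**Figure D3:**
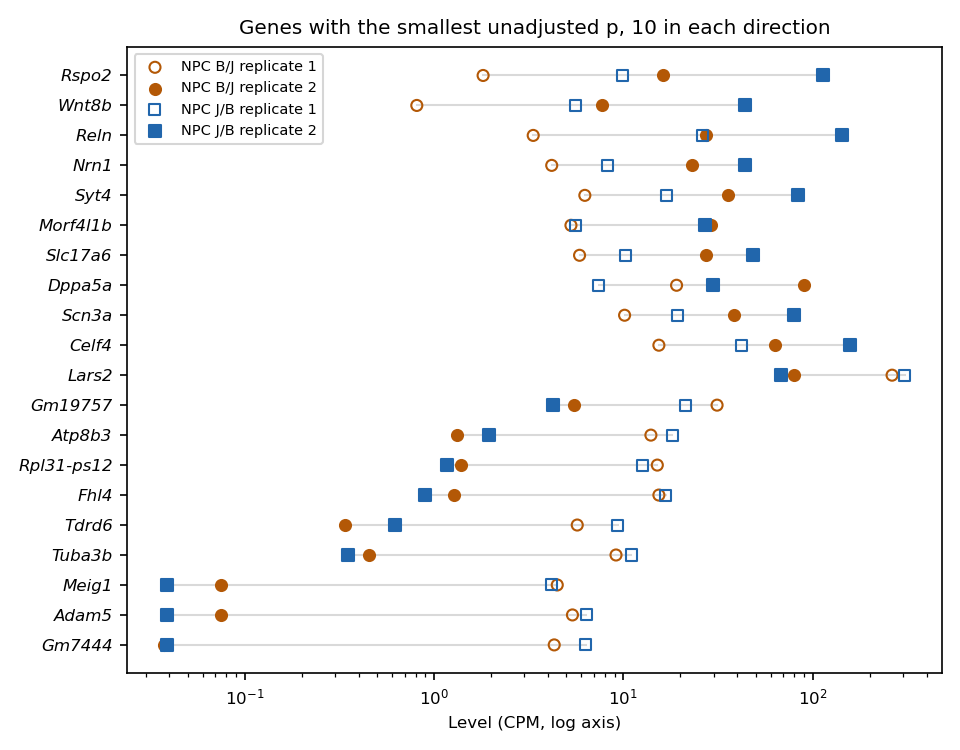
Level in CPM (log axis) in the 4 NPC libraries of the 20 genes with the smallest unadjusted p, 10 higher and 10 lower in replicate 2, with circles for B/J, squares for J/B and filled symbols for replicate 2. Open and filled symbols are separated within each cross for every gene, since the naming rule required the same sign in both crosses. For several of the lower genes the crosses lay close in replicate 1, as for *Adam5* at 5.39 and 6.39 CPM, while *Tdrd6* had 5.71 and 9.36 CPM there.

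Transcripts of spermatocytes and spermatids, the meiotic and post-meiotic cells of the testis, were present in both replicate 1 NPC libraries and at or near 0 in both replicate 2 libraries. They were found because several led the genes lower in replicate 2, and a list of 18 was then written from knowledge of the testis. Its summed level was 60.9 CPM in B/J replicate 1 and 58.7 CPM in J/B replicate 1 (1875 and 1920 counts), against 0.602 and 0.820 CPM in replicate 2 (16 and 21 counts). In the 4 ESC libraries it was 0.490 to 0.710 CPM. All 18 genes had counts in each replicate 1 NPC library, and 14 and 13 of them were at 0 in the B/J and J/B libraries of replicate 2. Of the 18 genes 16 passed the count filter, through their replicate 1 counts, so no count of genes lower in replicate 2 is given for this list. Whether these transcripts came from cells of the cultures or from other RNA in the 2 replicate 1 libraries was not tested, and this holds for the testis genes among those lower in replicate 2.

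*Crisp2*, a secreted protein of sperm, was read with 202 and 253 counts in replicate 1 (6.56 and 7.74 CPM) and with 0 in replicate 2 and in every ESC library. Taking 3 counts over both replicate 2 libraries as the floor, it was at least 124.6-fold lower in replicate 2. *Adam3*, a sperm surface protein, had 191 and 203 counts in replicate 1 and 0 elsewhere, at least 107.9-fold lower. *Gk2*, a testis-specific glycerol kinase, had 152 and 166 counts in replicate 1 and 0 in replicate 2. *Ldhc*, the lactate dehydrogenase of spermatogenic cells, had 500 and 606 counts in replicate 1 and 7 and 0 in replicate 2, a ratio of 129.9 (95% exact interval 62.8 to 323.7, for counting error only). *Prm1* and *Prm2*, the protamines that pack sperm DNA, had 26 and 14 and 25 and 21 counts in replicate 1 and 0 in replicate 2. *Adam5* (chr8:25217109-25314636, minus strand) had 166 and 209 counts in replicate 1 and 2 and 1 in replicate 2, a ratio of 102.7 (95% exact interval 34.9 to 500.4). The list sums of the crosses were thus close in replicate 1, where those of neuron markers were 563 CPM in B/J and 1593 CPM in J/B.

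**Figure D4:**
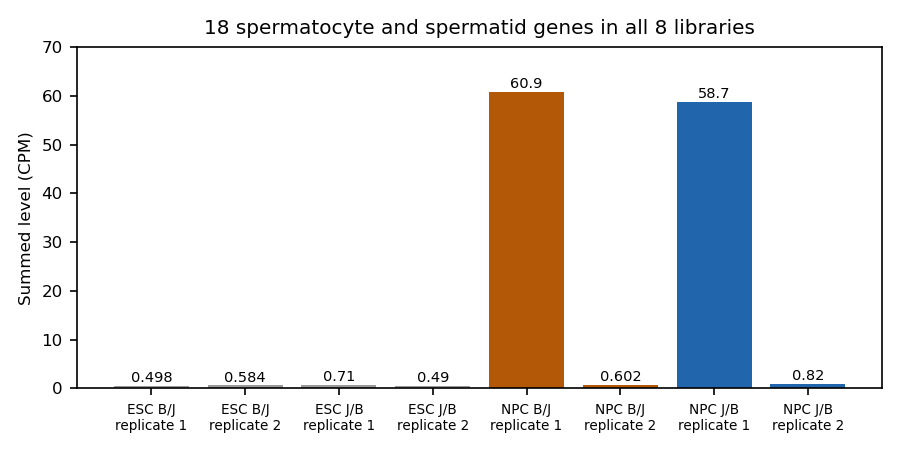
Summed level in CPM of 18 spermatocyte and spermatid genes in each of the 8 libraries, bars starting at 0. Both replicate 1 NPC libraries stand at 60.9 and 58.7 CPM, and the other 6 libraries lie at or below 0.820 CPM.

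Other testis and germline lists, also chosen after values were seen, were mixed. Early germ cell and meiotic genes such as *Dmc1* (0.941 and 1.04 CPM in replicate 1, 2.48 and 0.859 CPM in replicate 2) and *Sycp3* (0.617 and 0.856 CPM, 1.54 and 0.429 CPM) overlapped. *Ddx4*, an RNA helicase of germ cells, was lower in replicate 2, at 3.51 and 3.82 CPM against 2.11 and 1.21 CPM. Leydig and Sertoli cell genes were mixed, with *Insl3* overlapping at 3.57 and 0.978 CPM in replicate 1 and 3.09 and 2.15 CPM in replicate 2 and *Cyp11a1* lower at 5.19 and 4.31 CPM against 2.03 and 1.83 CPM. Of 10 motile cilia genes tested, 5 had a positive and 5 a negative fitted difference, and the list's median of -0.18 became 0.05 after scaling to reference genes. Its median was -0.41 in B/J and -0.43 in J/B. Without overlap, 5 of these genes were lower, against 22.7% of all genes, and 1 was higher, against 21.3%. *Tekt1*, a protein of ciliary and sperm microtubules, had 2.95 and 2.48 CPM in replicate 1 and 0.451 and 0.507 CPM in replicate 2. *Foxj1*, the regulator of motile cilia, had 7.63 and 8.87 CPM in replicate 1 and 5.27 and 7.96 CPM in replicate 2. Transcripts of other adult organs, *Alb*, *Ins1*, *Ckm*, *Umod*, *Sftpc* and *Fabp1*, summed to 0 and 0.122 CPM in replicate 1 and to 0 in replicate 2. Among genes with a mean of at least 1 CPM, 111 were at least 4-fold lower in replicate 2 of both crosses and 39 at least 4-fold higher, while over all genes tested, without the limit on the mean, the shares were 1.89% lower and 0.289% higher. Of the 111, 67 were under 0.5 CPM in every ESC library, as were 26 of the 39. Of the 111, 25 had 0 counts in both replicate 2 libraries and passed the count filter through their replicate 1 counts.

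The same contrast was fitted in the ESC libraries. There 1323 of 13814 genes passed an adjusted p of 0.05 (9.58%), in either direction. Among 12886 genes compared, 8 differed by at least 3-fold in the same direction in all 4 pairs of libraries, 2 higher and 6 lower in replicate 2. *Rpl31-ps12* (chr16:16637613-16637987, minus strand), a transcribed processed pseudogene of a ribosomal protein, had 15.1 and 12.6 CPM in NPC replicate 1 and 1.39 and 1.17 CPM in NPC replicate 2, with 17.8 and 18.2 CPM in ESC replicate 1 and 1.61 and 1.58 CPM in ESC replicate 2. *Lars2*, which encodes the mitochondrial leucyl-tRNA synthetase, had 262.9 and 307.6 CPM in NPC replicate 1 and 79.3 and 68.1 CPM in NPC replicate 2, with 776.5 and 808.1 CPM in ESC replicate 1 and 115.3 and 80.6 CPM in ESC replicate 2. *Rn7sk*, a small nuclear RNA without a poly(A) tail, *Gm12657*, *Cfap206* and *Tuba3a* were also lower. *Morf4l1b* (5.29 and 5.56 CPM in NPC replicate 1, 28.9 and 27.1 CPM in NPC replicate 2) and *Mir3064* were higher. These 8 genes followed the number in cells of both stages, and several are pseudogenes, copies of other genes or RNAs without a poly(A) tail, whose counts can depend on how reads are divided. A list of RNAs without a poly(A) tail, chosen after values were seen, summed to 169.6 and 168.5 CPM in NPC replicate 1 and to 76.5 and 60.6 CPM in NPC replicate 2. Most of the sum was *Rn45s*, the ribosomal RNA precursor, with 162.6 and 163.4 CPM in NPC replicate 1 and 75.7 and 59.3 CPM in NPC replicate 2, but with 137.1 and 163.4 CPM in ESC replicate 1 and 146.9 and 166.8 CPM in ESC replicate 2. Whether the kit or sequencer takes part in these differences was not tested.

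**Figure D5:**
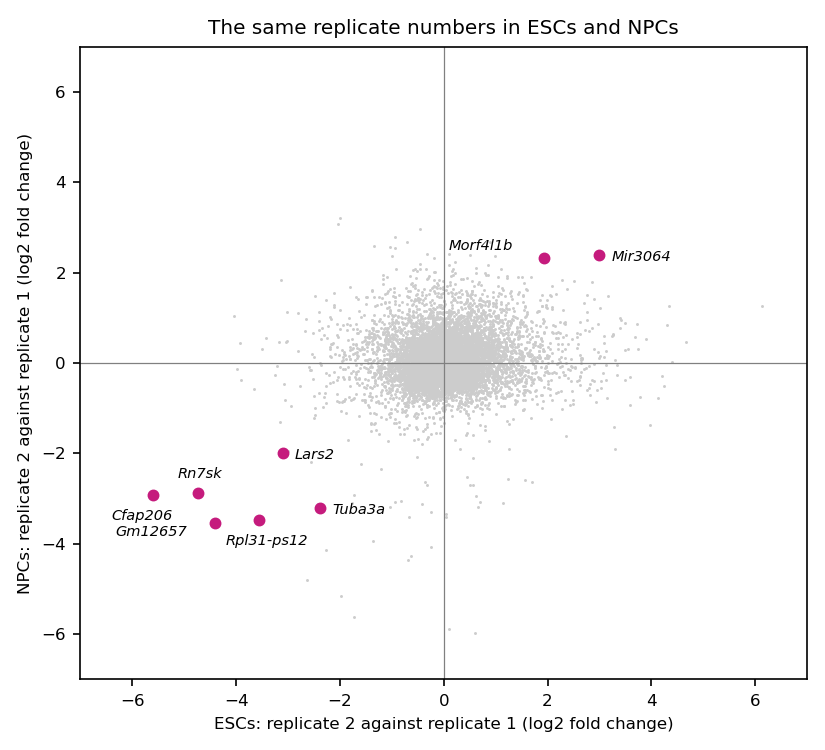
Log2 fold change of replicate 2 against replicate 1 in ESCs (horizontal axis) and NPCs (vertical axis) for 12783 genes with a mean of at least 1 CPM in NPCs, 1 point per gene, with the 8 genes that differed at least 3-fold in all 4 pairs of libraries labelled. The labelled genes lie toward the lower left (6) and the upper right (2), most other points form a cloud around 0, and 1 gene lies outside the axes.

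Across 12783 genes, the difference in NPCs of B/J was correlated with that of J/B at r = 0.48 (66.2% of genes with the same sign), and the difference in ESCs of B/J with that of J/B at r = 0.60 (73.8%). NPC and ESC pairs gave r from 0.06 to 0.12. These are correlations across genes, which are not independent replicates. The difference of the contrast between NPCs and ESCs passed an adjusted p of 0.05 for 223 of 16399 genes (1.36%), 0.781% higher and 0.579% lower. The count was 0 with limma-voom, 48 with library totals and 0 without either NPC library of B/J. Of the genes described here 11 passed, *Scn3a*, *Dppa5a*, *Zfp600*, *Tcl1* and *Dazl* with a higher difference in NPCs and *Atp8b3*, *Ascl2*, *Hand1*, *Krt19*, *T* and *Rn45s* with a lower one. The NPC difference is part of the tested term. *Scn3a*, *Dppa5a* and *Atp8b3* were named for that difference, and *Zfp600*, *Tcl1*, *Dazl*, *Krt19*, *T* and *Rn45s* after values were seen, which favours passing. For *Ascl2* the log2 difference was -1.24 in NPCs and 2.06 in ESCs (edgeR interaction, adjusted p = 0.0291). Its ESC levels were 1.14 and 0.976 CPM in replicate 1 and 4.63 and 4.64 CPM in replicate 2. *Hand1* in ESCs had 0.107 and 0.266 CPM in replicate 1 and 2.66 and 1.999 CPM in replicate 2, while its NPC levels were lower in replicate 2 (adjusted p of the difference = 0.0387).

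In the imprinted domain studied with these cells, *Kcnk9*, which encodes a background potassium channel, was higher in both replicate 2 libraries. Its NPC levels were 0.779 and 4.98 CPM in replicate 1 and 6.28 and 13.9 CPM in replicate 2 (log2 difference 2.13, standard error 0.463, unadjusted p = 0.00599, adjusted p = 0.113). *Peg13*, the noncoding RNA of the domain, had 13.02 and 23.2 CPM in replicate 1 and 28.6 and 53.7 CPM in replicate 2 (log2 difference 1.13, standard error 0.180, adjusted p = 0.0758). *Trappc9* (35.6 and 41.5 CPM against 44.7 and 48.4 CPM) did not overlap either, with a log2 difference of 0.23 (adjusted p = 0.491). *Peg13* lies within *Trappc9* on the same strand, so reads from the host transcript cannot be told apart there, and how strand was used in counting is not stated in these sources. *Chrac1* (16.002 and 17.7 CPM against 15.5 and 14.9 CPM) and *Ago2* (136.7 and 161.3 CPM against 196.3 and 163.8 CPM) had log2 differences of -0.19 and 0.23, the first of which turned positive under scaling to reference or ribosomal protein genes. The reference genes *Gapdh*, *Gusb* and *Tbp* had log2 differences of -0.03, -0.47 and -0.18, of which *Gapdh* was positive under library totals and both *Gapdh* and *Tbp* were positive under scaling to the 3 reference genes or to ribosomal protein genes. *Gusb* was 35.6 CPM in B/J replicate 1 and 15.3 to 21.4 CPM in the other 3 libraries.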

How the data were processed

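PolyA RNA was sequenced from ESCs and NPCs of both crosses. The authors mapped paired-end reads to a masked mm39 genome with TopHat2 and deposited raw counts per gene for each library. The submitters' processing notes also name HTSeq, DESeq2 and edgeR, without versions, and do not state how strand was used in counting. The deposited counts cover 26263 genes after 5 closing rows of unassigned reads were left out. These rows held between 7.71% and 10.9% of NPC reads as lying on no gene.

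The main test was edgeR 4.0.16 under R 4.3.3 (TMM scaling, filterByExpr with a minimum count of 10, robust quasi-likelihood test, cross as a block, 1 residual degree of freedom) and Benjamini-Hochberg adjustment over all genes tested. limma 3.58.1 and DESeq2 1.42.0 were alternatives. The test was checked on simulated data. CPM are counts scaled to the total of reads on genes, and overlap of groups was judged on TMM-scaled CPM. Differences within a cross are between edgeR's TMM-scaled log2 CPM with a prior count of 0.5, added to counts. Intervals and floors cover counting error only. Named genes were the 10 highest and 10 lowest by fold change past the threshold, limited to genes averaging 1 CPM or more whose sign was shared by both crosses, filled here entirely by smallest unadjusted p, with the first 4 genes of 6 lists and the genes of the studied domain, of which 1 is not reported here. Further list members were named after their values were seen. Members and lists were chosen with earlier results of these data known, and 9 lists and 3 alternatives were added after seeing the values. Gene positions and lengths came from GENCODE vM39 (GRCm39), and promoter windows from RefSeq (GRCm38.p6).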

Additional observations from a re-analysis of the deposited data

Results flagged for a closer look

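The median log2 difference of replicate 2 against replicate 1 had opposite signs in the crosses for 2 lists. For neural precursors J/B minus B/J was -1.82, and for mesenchyme it was 1.59. Neither difference between lists was tested, and each rests on 1 pair of libraries per cross.

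For 5 genes chosen by the naming rule the contrast differed between NPCs and ESCs in edgeR's interaction test. Of these, *Atp8b3*, *Dppa5a* and *Scn3a* were named for their NPC difference, which is part of this test and favours their passing. The NPC minus ESC difference on the log2 scale was -3.29 for *Ascl2* (adjusted p = 0.0291), -4.51 for *Hand1* (adjusted p = 0.0387), -3.38 for *Atp8b3* (adjusted p = 0.0387), 3.01 for *Dppa5a* (adjusted p = 0.0291) and 2.24 for *Scn3a* (adjusted p = 0.0387). With limma-voom 0 genes passed this interaction test, and without either NPC library of B/J 0 passed in edgeR.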

How the results depend on the processing

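With the replicate number as the pair, no paired analysis was possible because that number is itself what is compared. The reported fit is paired by cross, through the block, and without that block 0 genes passed as well. The 0 genes at an adjusted p of 0.05 became 2623 with scaling to ribosomal protein genes, 825 with DESeq2, 409 without a low-count filter, 305 with limma-voom and 55 in the 8-library edgeR fit. Each NPC library was left out in that 8-library fit, where 55 became 0 every time. Scaling to ribosomal protein genes moved the median of all genes by 0.39 and scaling to the 3 reference genes by 0.22 on the log2 scale. The NPC minus ESC count of 223 became 1007 with DESeq2, 48 with library totals and 0 with limma-voom, and ranged from 0 to 79 with 1 NPC library left out, where the lone library of a group is assumed to vary like the others. The cause was not tested.

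The dorsal telencephalon median was 1.26 in B/J alone and ranged from 1.26 to 2.80 with 1 library left out. The placental median was -0.083 with scaling to ribosomal protein genes. With 1 library left out, the medians ranged from -0.46 to 1.36 for neural precursors, -0.34 to 1.25 for mesenchyme, 0.87 to 1.79 for neurons, -0.76 to -0.15 for trophoblast regulators and -0.62 to -0.30 for placental products.

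Single genes changed sign as follows. Without the cross block *Nes* was -0.14 and *Sox1* -0.20. With length and GC offsets *Nes* was -0.015, *Col5a1* -0.29 and *Ago2* -0.33. Scaling to ribosomal protein genes gave *Gata3* 0.055, *Tpbpb* 0.0088, *Chrac1* 0.21, *Gapdh* 0.37 and *Tbp* 0.22. Scaling to reference genes gave *Chrac1* 0.037, *Gapdh* 0.20 and *Tbp* 0.047, and library totals gave *Gapdh* 0.015. With 1 library left out, log2 differences ranged from -0.70 to 1.01 for *Nes*, -0.22 to 1.97 for *Pax6*, -0.74 to 1.66 for *Sox1*, -0.43 to 1.82 for *Sox2*, -0.42 to 1.49 for *Col1a1*, -0.45 to 1.64 for *Col1a2*, -0.45 to 1.14 for *Col3a1*, -0.43 to 0.49 for *Col5a1*, -0.70 to 0.033 for *Gata3*, -0.015 to 0.48 for *Ago2*, -0.077 to 1.55 for *Pou5f1* and -0.37 to 0.31 for *Gapdh*.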
